A study of Mus musculus with 6 samples.

Results

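The genes described here are 10 inducible transcription factor genes: the Fos genes Fos, Fosb, Fosl1 and Fosl2, the Jun genes Jun, Junb and Jund, the Egr genes Egr1 and Egr3, and Atf3. They are listed by name, and all 10 were found by Ensembl identifier among the 21666 genes of the deposited count matrix. All libraries were made from satellite cells of mouse skeletal muscle, which act as its resident stem cells, taken 2 days into differentiation. One group of 3 libraries came from wild-type (WT) mice and the other group of 3 from mice lacking the long noncoding RNA lncMREF (KO), and the comparison asks which genes differ between the genotypes at this time. The sources used here do not state the strain, sex or age of the mice, the knockout allele, or whether replicates were separate animals or cultures. The p-values therefore speak only to the scatter among these 6 libraries, part of which may be technical. No identifier of lncMREF was at hand, and loss of the targeted RNA was left unchecked.

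Fos and Jun proteins pair through a leucine zipper to form the transcription factor AP-1, which binds the DNA motif TGANTCA. Jun proteins can pair with each other, whereas Fos proteins need a partner. Atf3 is a stress-induced protein with the same kind of zipper that pairs with Jun proteins and binds the related motif TGACGTCA, the cyclic AMP response element. Egr1 and Egr3 are zinc finger proteins of another class that bind GC-rich sites. Many of these genes are immediate early genes, transcribed within minutes of a growth factor, calcium or stress signal from MAP kinases, without new protein synthesis, and their RNAs are short-lived. In muscle precursors, AP-1 is known for its links to proliferation and to activation of satellite cells.

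RefSeq promoter windows of the GRCm38.p6 build were available for 7 of the 10 genes (Atf3, Fos, Fosb, Fosl2, Jun, Junb and Jund). The 3 stretches of 30 bases below are shown because they are those that hold AP-1 or cyclic AMP element letters of at least 6 bases; each is written 5′ to 3′ on the gene's strand, with the matching letters in capitals.
Atf3: cctggaagctattaatagcattACGTCAgc
Jun: aaagcctcggggTGACATCAtgggctattt
Fos: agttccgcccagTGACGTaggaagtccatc
The Atf3 stretch is chr1:191183334-191183363 (minus strand) and ends at the base before the RefSeq start, which lies inside the GENCODE span of the gene, 34706 bases from its 5′ end. The Jun stretch is chr4:95052250-95052279 (minus strand) and begins 57 bases before the start. The Fos stretch is chr12:85473812-85473841 (plus strand) and begins 78 bases before the start. Both strands of the 250 bases before each start were searched. ACGTCA, which lies within TGACGTCA, was found in Atf3 and, on the other strand as TGACGT, in Fos, and in 6.47% of all 32851 RefSeq windows of this length. TGACATCA was found in Jun and in 2.93% of windows. The shorter TGACG, which lies within TGACGTCA but not within TGACATCA, was found in Atf3, Fos, Fosb and Junb and in 17.8% of windows. TGANTCA (6.75% of windows) was found in none of the 7, and neither was the full TGACGTCA (1.55% of windows). The CArG box, CC and GG around 6 bases of A or T (1.47% of windows), was also found in none of the 7. The Egr motif GCGNGGGCG was found in Fosb and Fosl2 and in 4.7% of windows. These are letter matches only.

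Library totals ran from 17919826 to 28430678 counts. Levels are given as CPM, the count scaled to a common library size by TMM factors, per library or as mean ± SD over 3 libraries. SE is that of the log2 fold change. A gene is said to have risen or fallen in KO when edgeR's quasi-likelihood test over 15518 genes gave an adjusted p under 0.05. That test called 66.7% of all genes tested, 33.0% lower and 33.7% higher, and called 17.9% with a change of over 2-fold. In 69.4% of all genes tested the CPM of the groups did not overlap. Read against these shares, 8 of the 10 genes called (4 lower, 4 higher) and 9 without overlap are near the background. By change of over 2-fold, 2 of 10 were called. The count of 8 fell to 5 without WT replicate 2 or without KO replicate 3, and to 2 when the test was made against a 1.5-fold change. Scaling by library size alone set the median log2 fold change over all tested genes at 0.19 in place of 0.02, 66.1% of all calls were higher in place of 50.5%, and the genes split into 1 lower and 5 higher.

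**Figure D1:**
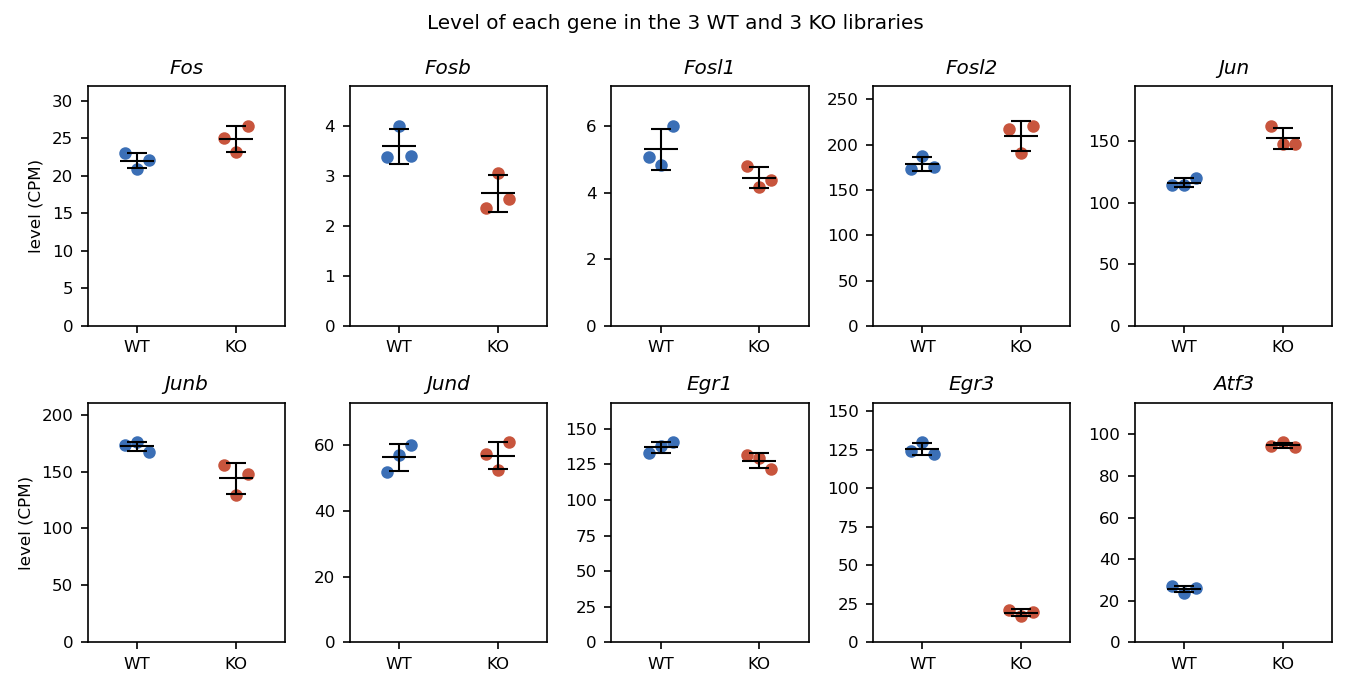
Level in CPM (y axis, each from 0) of the 10 genes in the 3 WT (blue) and 3 KO (red) libraries; black marks are the mean and SD. Egr3 fell from 125.6 to 19.2 CPM and Atf3 rose from 25.7 to 94.8 CPM, while the fitted fold of each of the other 8 genes was at most 1.34.

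Egr3 had the largest change of the 10 genes. Gene positions are those of GENCODE on the GRCm38 build, and counts are per gene. Egr3 (ENSMUSG00000033730, chromosome 14, 70077203 to 70082614) is known as a factor induced by neural and growth factor signals and required for muscle spindles. It stood at 124.4, 129.8 and 122.6 CPM in WT replicates 1 to 3 and at 21.1, 16.9 and 19.7 CPM in KO replicates 1 to 3. Every KO library lay below every WT library by a wide margin. In these bulk libraries, a changed mix of cells, in type or stage, and a changed amount of RNA per cell cannot be told apart. This holds here and for every gene that follows. Summed muscle lineage markers were lower in the same KO libraries, though Pax7 among them was higher. The part of these marker differences in the result was not tested. The fall was 6.55-fold (log2 fold change -2.71, SE 0.06, adjusted p 4.41e-28), and 1.59% of tested genes had a larger change in either direction. Egr1 (ENSMUSG00000038418, chromosome 18, 34859823 to 34864984), the best known factor of its family, was close to the same in both groups. It stood at 132.8, 138.1 and 140.3 CPM in WT and 131.4, 129.6 and 121.5 CPM in KO. The groups were separated by a small gap, and the change was 1.07-fold lower (log2 fold change -0.10, SE 0.05, adjusted p 0.0427). Removing 1 library ended the call in 3 of 6 cases, with an adjusted p of 0.0613 for WT replicate 2, 0.109 for WT replicate 3 and 0.174 for KO replicate 3. With library size as the scaling the sign turned (0.07, adjusted p 0.184).

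The ratio of Egr1 to Egr3 does not depend on the scaling of libraries. Per kilobase of exon, Egr1 over Egr3 was 1.05, 1.05 and 1.13 in the WT libraries and 6.12, 7.54 and 6.06 in the KO libraries. The genes were near equal in WT, and Egr1 was the more abundant in each KO library, also with the longest transcript as length (5.42 to 6.75). Another gene of the family, Egr2, which is known for its part in myelin formation, went from 26.6 ± 0.916 to 15.7 ± 0.52 CPM (log2 fold change -0.76, SE 0.08, adjusted p 7.8e-11). Egr4 had 0 to 6 counts in every library and was not tested. The corepressors that bind Egr proteins, Nab1 and Nab2, had log2 fold changes of -0.21 (SE 0.06, adjusted p 0.00149) and -0.28 (SE 0.05, adjusted p 9.93e-06). Egr2, Nab1 and Nab2 were picked from their lists as the family and its corepressors, after their values were seen.

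Atf3 rose. Atf3 (ENSMUSG00000026628, chromosome 1, 191170296 to 191218039) stood at 26.9, 23.9 and 26.2 CPM in WT and 94.3, 96.1 and 93.9 CPM in KO. The KO libraries lay close together and far above all WT libraries. The rise was 3.68-fold (log2 fold change 1.88, SE 0.06, adjusted p 2.99e-25), and 5.92% of tested genes changed more. In the per-library count tables, a second deposited form whose counts differ from the matrix, Atf3 was lower in KO (-0.64, adjusted p 6.74e-05) and Egr3 did not differ (0.00064, adjusted p 0.996). There, 6 of the 10 genes, among them Jun with 0 to 1 counts and Egr1 with 0, did not pass the low-count filter. In the matrix Jun had 2169 to 3701 counts and Egr1 had 2306 to 3760. With counts this unlike, values from the per-library tables, here and below, cannot be taken as a second measurement of the same genes.

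Atf3 is known as a target of the stress factor Atf4, and other genes of that branch were among the 25 further zipper genes listed as partners. Of 22 tested, 9 were lower and 8 higher (median log2 fold change 0.03, beside 0.02 over all genes tested), and 5 and 12 with library size as the scaling. Ddit3, which encodes the stress factor CHOP, rose from 42.6 ± 1.72 to 128.5 ± 9.16 CPM (1.59, SE 0.06, adjusted p 8.81e-24). Jdp2, a zipper protein that pairs with Jun and represses AP-1 sites, rose from 30.7 ± 0.544 to 64.2 ± 3.94 CPM (1.06, SE 0.06, adjusted p 2.32e-17). Atf4 (0.68, SE 0.04, adjusted p 3.48e-16) and Atf5 (0.82, SE 0.05, adjusted p 9.47e-13) rose too; these 2 were named after their values were seen. Atf6, the sensor of unfolded protein in the endoplasmic reticulum, fell (-0.74, SE 0.04, adjusted p 1.31e-16), but was called higher in the per-library tables (0.25, adjusted p 0.00315). The small Maf protein gene Mafk fell (-0.82, SE 0.05, adjusted p 7.82e-16). Batf, Batf2 and Batf3, zipper genes best known in lymphocytes, had 0 to 14 counts and were not tested.

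The 3 Jun genes went in different directions. Jun (ENSMUSG00000052684, chromosome 4, 95049034 to 95052222), the founding partner of Fos, stood at 114.5, 114.2 and 120.4 CPM in WT and 162.3, 147.4 and 147.3 CPM in KO. All KO libraries were above all WT libraries, and Jun rose 1.31-fold (log2 fold change 0.39, SE 0.05, adjusted p 5e-09). Junb (ENSMUSG00000052837, chromosome 8, 84974484 to 84978718), often a weaker activator than Jun and known to keep muscle fibre mass, stood at 173.4, 175.5 and 167.5 CPM in WT and 155.3, 129.3 and 147.8 CPM in KO. The groups did not overlap and the KO libraries were the more scattered. Junb fell 1.2-fold (-0.26, SE 0.05, adjusted p 0.000138), but the call was lost with library size as the scaling (-0.09, adjusted p 0.14). Jund (ENSMUSG00000071076, chromosome 8, 70698949 to 70700616), the Jun gene expressed most steadily in resting cells, stood at 51.9, 56.8 and 60.1 CPM in WT and 57.1, 52.5 and 60.8 CPM in KO. Its groups overlapped fully and it was not called (0.01, SE 0.06, adjusted p 0.897). With library size as the scaling Jund was called higher (0.18), and its sign varied over other alternatives. Of Jund's exonic bases, 52.6% are shared with Gm11175 on the opposite strand, which was not analysed here, and the sources used here do not say whether reads were counted by strand. Jun shares 7.3% with the antisense gene Junos and Junb 7.5% with Prdx2, and neither neighbour was called.

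Of the 4 Fos genes, Fosl2 was the most abundant. Fosl2 (ENSMUSG00000029135, chromosome 5, 32135801 to 32157842), which lacks a strong activation domain, stood at 172.9, 187.2 and 175.1 CPM in WT and 217.0, 191.1 and 220.6 CPM in KO. KO replicate 2 lay close above the highest WT library and the other KO libraries clearly above, and Fosl2 rose 1.17-fold (log2 fold change 0.23, SE 0.05, adjusted p 0.000162). Fos (ENSMUSG00000021250, chromosome 12, 85473890 to 85477273), the classic immediate early gene, stood at 23.0, 20.95 and 22.1 CPM in WT and 25.0, 23.1 and 26.6 CPM in KO. The groups did not overlap, but KO replicate 2 lay just above WT replicate 1. Fos was called higher (1.13-fold; 0.17, SE 0.08, adjusted p 0.0401), and the call was lost in 9 of 12 alternatives, including the removal of any WT library (adjusted p 0.0531, 0.163 and 0.104) or of KO replicate 1 (0.0866) or 3 (0.182).

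Fosb and Fosl1 had the lowest levels of the 10 genes in the matrix. Fosb (ENSMUSG00000003545, chromosome 7, 19302696 to 19310051), known for a stable splice form, had 76, 76 and 91 counts in WT and 52, 77 and 48 in KO. Scaled to CPM these were 3.38, 4.001 and 3.40 against 2.36, 3.07 and 2.53, without overlap. It was called lower (1.34-fold; -0.42, SE 0.18, adjusted p 0.0422), and 6 of 12 alternatives lost the call, among them leaving out WT replicate 2 (adjusted p 0.126), KO replicate 1 (0.145) or KO replicate 3 (0.0893). In the per-library tables the Fosb row had 1974 to 2204 counts in WT and 1564 to 1985 in KO, far from those of the matrix. Its lower value there (-0.23, adjusted p 0.0039) is therefore no second measurement of the fall. Fosl1 (ENSMUSG00000024912, chromosome 19, 5447547 to 5455946), a Fos gene linked to growth and migration, stood at 5.07, 4.84 and 6.01 CPM in WT and 4.80, 4.18 and 4.37 CPM in KO. It was not called (-0.26, SE 0.15, adjusted p 0.119), nor in any of the 12 alternatives on the matrix. Fosl1 shares 57.2% of its exonic bases with Ccdc85b on the opposite strand, which stood at 25.1 ± 0.938 and 23.5 ± 2.16 CPM and was not called.

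**Figure D2:**
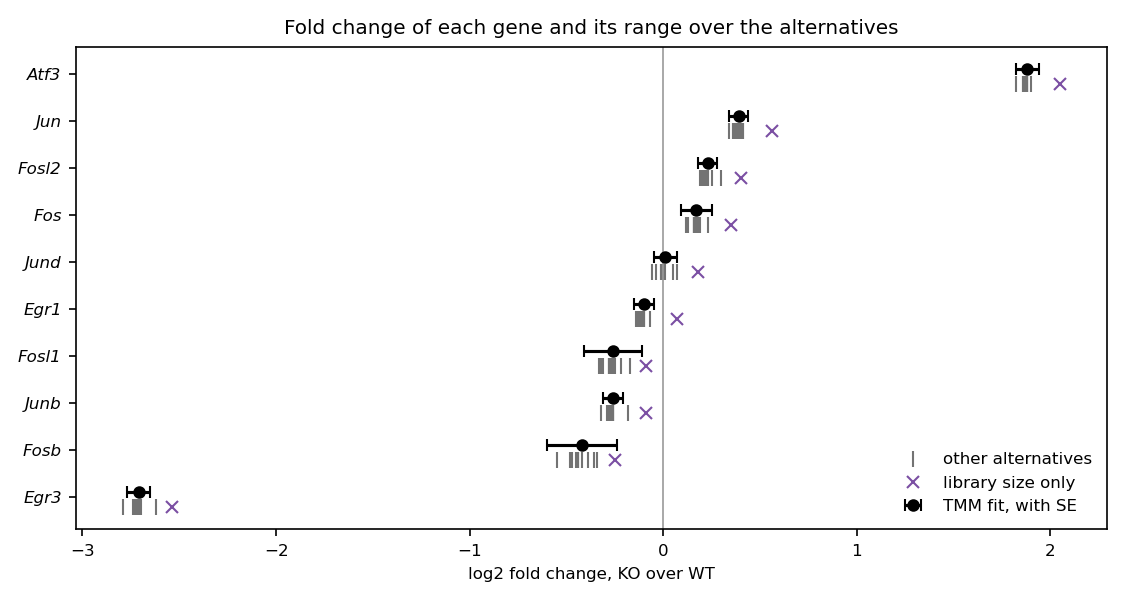
Log2 fold change of KO over WT (x axis) for the 10 genes, with the fit on TMM-scaled counts (black, bars are SE), the fit with library size only (purple cross) and the other alternatives on the matrix (grey ticks). Egr3 at -2.71 and Atf3 at 1.88 stand apart, and the cross for Egr1 lies on the other side of 0 at 0.07.

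Only levels per kilobase of exon can be set side by side between genes, as RPKM. In WT the order of mean RPKM was Junb (74.8), Jun (36.5), Jund (33.7), Egr1 (30.6), Egr3 (28.5), Fosl2 (18.4), Atf3 (11.9), Fos (9.35), Fosl1 (2.61) and Fosb (0.576). In KO it was Junb (62.6), Jun (47.8), Atf3 (44.0), Jund (34.1), Egr1 (28.4), Fosl2 (21.7), Fos (10.6), Egr3 (4.37), Fosl1 (2.19) and Fosb (0.425). These orders are for union exon length. That length includes the bases that Jund (52.6%) and Fosl1 (57.2%) share with opposite-strand genes. The effect of shared bases on RPKM, ranks and family shares was not tested. In them Atf3 stood after Fosl2 in WT and between Jun and Jund in KO, and Egr3 stood before Fosl2 in WT and after Fos in KO. Among neighbours in WT, the libraries of Jun (35.8 to 37.7 RPKM) and Jund (31.1 to 36.0 RPKM) overlapped, as did those of Jund and Egr1 (29.6 to 31.3 RPKM). Egr3 (27.8 to 29.5 RPKM) lay just under Egr1 without overlap, and no neighbours overlapped in KO. With the longest transcript as length, Egr1 over Egr3 was 0.938, 0.935 and 1.01 in WT, so their order there is not settled. The order of Egr1 and Fosl2 in KO depends on the length too. Fosl2 has 9680 bases of union exon and a longest transcript of 6537, and Egr1 has 4484 for both.

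Within the Jun family, the share of Jun was higher in every KO library and that of Junb lower. Jun made up 25.2, 24.5 and 25.7% of the summed RPKM of the 3 Jun genes in WT and 33.4, 34.5 and 31.5% in KO. Junb made up 52.9, 52.2 and 49.7% in WT and 44.2, 42.0 and 43.7% in KO, and Jund 21.8 to 24.6% and 22.4 to 24.8%. The summed level was 145 ± 2.34 RPKM in WT and 144 ± 9.6 RPKM in KO, so the family total differed by less than its spread. Within the Fos family, Fosl2 held 59.5 ± 2.02% in WT and 62.1 ± 0.602% in KO, with overlap, and Fos 30.2 ± 1.68% and 30.4 ± 0.613%. Fosl1 went from 8.43 ± 0.995% to 6.29 ± 0.378% and Fosb from 1.86 ± 0.166% to 1.23 ± 0.261%, both without overlap. Jun family RNA over Fos family RNA, per kilobase, was 4.68 ± 0.0464 in WT and 4.15 ± 0.13 in KO. Atf3 over Jun was 0.348, 0.31 and 0.323 in WT and 0.86, 0.966 and 0.944 in KO. With the longest transcript as length, Atf3 over Jun was 0.378, 0.336 and 0.35 in WT and 0.934, 1.05 and 1.02 in KO. Atf3 was below Jun in every WT library with both lengths, and which of them was higher in KO depended on the length. These shares and ratios are descriptions of RNA, with no test, and the lengths of Jund and Fosl1 include bases shared with opposite-strand genes.

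**Figure D3:**
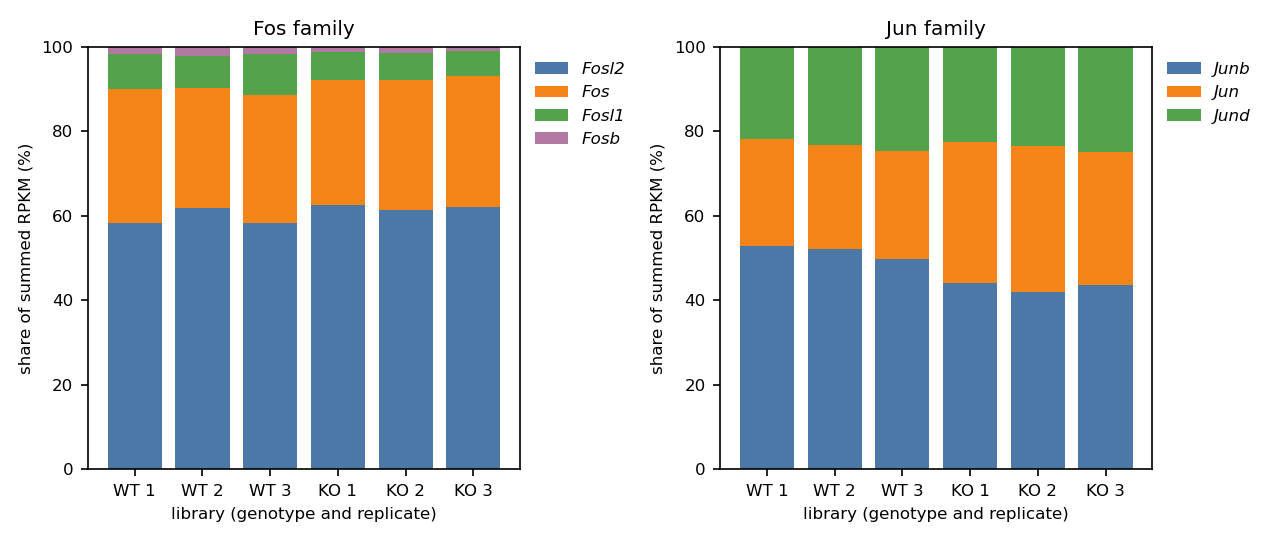
Share of the summed RPKM (y axis, percent) that each Fos gene (left) and each Jun gene (right) held in each of the 6 libraries (x axis). Jun (orange, right) holds 24.5 to 25.7% in WT and 31.5 to 34.5% in KO, and Fosl2 (blue, left) holds 58.3 to 62.6% throughout.

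Other immediate early genes were mixed in direction. Of 24 listed, 23 were tested, and 13 were lower and 8 higher (median log2 fold change -0.20), and 10 and 9 with library size as the scaling. Over all genes tested, 33.0% were called lower and 33.7% higher, and the counts of every list are to be read against these shares. Nr4a3, an inducible orphan nuclear receptor, fell from 24.4 ± 1.16 to 6.6 ± 0.718 CPM (-1.87, SE 0.10, adjusted p 9.66e-19), while its relative Nr4a2 rose from 7.18 ± 0.771 to 12.8 ± 1.03 CPM (0.84, SE 0.11, adjusted p 3.64e-08). The matrix-associated signalling protein gene Ccn1 fell from 358.2 ± 6.18 to 207.1 ± 2.43 CPM (-0.79, SE 0.04, adjusted p 1.46e-18). Myc, the growth regulator, rose from 31.5 ± 0.342 to 45.4 ± 1.63 CPM (0.53, SE 0.06, adjusted p 2.12e-09). Arc, an activity-regulated gene of neurons, fell 5.78-fold from 12.4 ± 1.12 CPM (-2.53, SE 0.14, adjusted p 1.05e-17); it was named after its values were seen.

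Genes through which signals reach immediate early promoters were called in both directions. The share called among all genes tested was 33.0% lower and 33.7% higher. A list of 13 genes held the serum response factor, its ternary complex partners, their kinases and cofactors, and the Egr corepressors Nab1 and Nab2. Of the 13, 9 were lower, Nab1 and Nab2 among them, and 2 higher (median -0.28). With library size as the scaling these counts were 6 and 3. Srf itself, the factor that binds Fos and Egr promoters, fell from 64.9 ± 1.37 to 48.2 ± 0.309 CPM (-0.43, SE 0.05, adjusted p 1.56e-08), and the kinase Rps6ka2 fell too (-0.81, SE 0.05). The Srf coactivator Mrtfb (0.23, SE 0.06) and the acetyltransferase Crebbp (0.22, SE 0.07) rose, the latter not without WT replicate 3 (adjusted p 0.0534). Neither was called in the per-library tables (Mrtfb 0.15, adjusted p 0.535; Crebbp 0.06, adjusted p 0.435). Of 23 MAP kinase cascade genes, 11 were lower and 6 higher (median -0.17), and 6 and 8 with library size as the scaling. Map2k4, an activator of Jun kinases, fell (-0.56, SE 0.05). The ERK gene Mapk3 (0.85, SE 0.05) and the Jun kinase gene Mapk9 (0.23, SE 0.05) rose.

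The phosphatases that switch MAP kinases off, many of them immediate early genes, were lower. Of 11 tested, 9 fell and 0 rose (median -0.54, beside 33.0% of all genes tested called lower), and 8 fell and 0 rose with library size as the scaling. Dusp2 fell from 13.03 ± 0.0571 to 2.47 ± 0.653 CPM (-2.41, SE 0.14, adjusted p 6.48e-17) and Dusp14 from 36.8 ± 1.03 to 17.1 ± 1.55 CPM (-1.11, SE 0.07, adjusted p 1.38e-15). Dusp14 was not called in the per-library tables (-0.02, adjusted p 0.925). The other 7 that fell were Dusp1, Dusp4, Dusp6, Dusp7, Dusp8, Dusp10 and Dusp16, from 1.29-fold (Dusp8, the only one of the 9 whose groups overlapped) to 2-fold (Dusp10). Dusp5 (-0.13, adjusted p 0.207) and Dusp9 (-0.02, adjusted p 0.924) were not called, and all of these were named after their values were seen.

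Of 23 genes known as AP-1 targets, 21 were tested, and 14 were lower and 5 higher (median -0.29, 8 lower and 3 higher by over 2-fold), and 10 and 7 with library size as the scaling. Among all genes tested in the matrix, 33.0% were called lower, 33.7% higher and 17.9% with a change of over 2-fold. Of 11 tested in the per-library tables, 3 were lower and 5 higher. The prostaglandin synthase Ptgs2 fell (-3.09, SE 0.05), whereas the cyclin Ccnd1 (1.41, SE 0.05) and heme oxygenase Hmox1 (1.06, SE 0.04) rose. These genes have other regulators as well, and binding was not measured. Of 12 heat shock genes, which respond to handling stress as Fos and Atf3 do, 8 were lower and 2 higher (median -0.22), and 4 and 3 with library size as the scaling. The small heat shock gene Hspb1 fell (-0.90, SE 0.05), as did Hspa1b (-0.89, SE 0.07), which has a near-identical copy in Hspa1a that can share reads. The mitochondrial chaperonin gene Hspe1 (0.92, SE 0.10) and Dnajb1 (0.27, SE 0.06) rose.

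**Figure D4:**
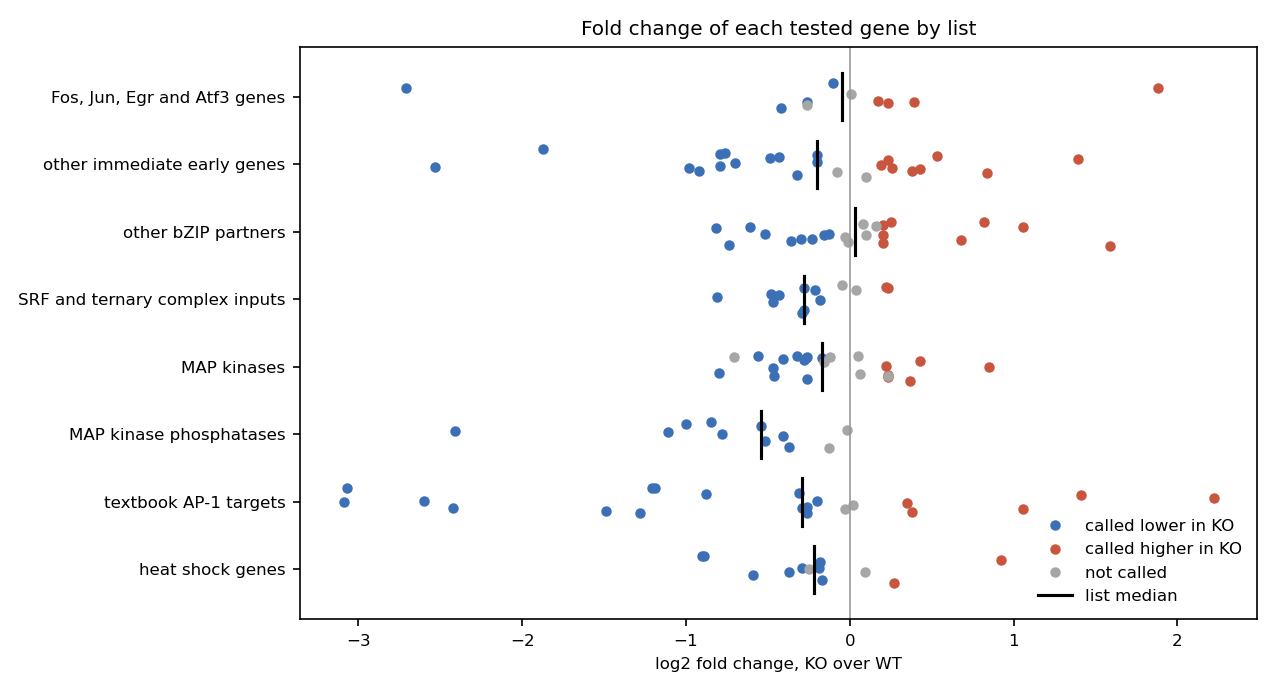
Log2 fold change of KO over WT (x axis) for every tested gene of the Fos, Jun, Egr and Atf3 group and of 7 related lists (y axis); colour gives the call and the black line the list median. The phosphatase list has no gene called higher and a median of -0.54, and the other lists hold genes called in both directions.

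Markers of muscle and of other cell types also differed between the same libraries. Of all genes tested, 33.0% were called lower and 33.7% higher. Of 10 muscle lineage markers, all detected, 8 were lower and 1 higher, with a summed level of 17420 to 18110 CPM in WT and 3928 to 4249 CPM in KO. The higher one was Pax7 (0.53, SE 0.10, adjusted p 1.12e-05), and Myf5 was not called (-0.15, adjusted p 0.346). Myh3 and Acta1 were the largest parts of the sum, with means of 5695 and 5451 CPM in WT and 947.7 and 1475 CPM in KO. Myf5, Myh3 and Acta1 were named after their values were seen. All 10 endothelial markers were lower (summed 372.2 to 378.7 against 111.5 to 119.3 CPM). All 10 macrophage markers were higher (108.5 to 118.4 against 352.6 to 364.4 CPM), and among them the pan-leukocyte gene Ptprc, named after its values were seen, stood at 0.789 ± 0.0544 and 2.89 ± 0.496 CPM. Lyz2 was the largest part of the macrophage sum, with means of 82.45 CPM in WT and 238.3 CPM in KO. Of 10 Schwann cell markers, 8 were higher and 1 lower (532.5 to 533.5 against 1034 to 1061 CPM). Ngfr, the largest part in KO, went from 130.0 to 518.9 CPM. Erbb3, the largest part in WT and the lower one, went from 244.0 to 120.6 CPM (-1.02, SE 0.05). Of 8 fibroblast markers tested of 10 listed, 4 were higher and 3 lower (10220 to 10360 against 11640 to 12380 CPM), and Tcf21 was not analysed here. Col1a1, named after its values were seen, and Col3a1 were the largest parts of that sum. Their means were 6685 and 3276 CPM in WT and 7544 and 4196 CPM in KO. Dcn, among the lower ones, went from 215.9 to 143.1 CPM. Every gene of the matrix had counts in at least 1 library, so detection of a marker does not show its cell type. The part of these differences in the levels of Egr3, Atf3, Jun and the other genes was not tested.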

How the data were processed

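RNA-seq libraries of satellite cells after 2 days of differentiation, 3 WT and 3 KO, were grouped by the titles and genotype in the labels. Unnormalized counts were deposited by the authors in 2 forms, a matrix of the series with 21666 Ensembl genes and a table per library with 55359. The build mm10 and the tools featureCounts 2.0.1 and HISAT2 2.2.1 are named per the submitters' processing notes, without an annotation or strand setting. The matrix was the main source and the per-library tables an alternative. Identifiers were matched to GENCODE M21 (GRCm38, the same build; 21632 matched, 34 not), which gave symbols, coordinates and exon lengths.

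Genes were kept by filterByExpr (minimum count 10, minimum total 15), scaled by TMM and tested by edgeR 4.0.16 (R 4.3.3) with its robust quasi-likelihood F-test, with genotype as its sole factor. Adjustment was by Benjamini-Hochberg over 15518 genes, and adjusted p under 0.05 was called. SE is the log2 fold change over the square root of F. RPKM is scaled CPM per kilobase of union exon. Replicate libraries differed by more than sampling noise (mean chi-square per gene 3.18 to 5.11). On simulated counts for the 15495 genes passing the filter, the test recovered 42% of 1.25-fold, 90% of 1.5-fold, 100% of 2-fold and 98% of 4-fold changes. Only 50 genes per fold were changed there, none of them at low counts, with the same fixed scatter for every gene. In the data 66.7% of genes were called and the scaling factors differed by genotype. The rates therefore check the code and are not the recovery to be had in these data.

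Alternatives were median-of-ratios factors, library size only, no low-count filter, DESeq2 1.42.0, limma 3.58.1 (voom), a 1.5-fold test, a replicate block, leaving out each library, and the longest transcript as length. The 10 genes and all lists (12 besides them) were chosen with earlier results of these data known. Named were the 10 genes and, per list, up to 2 called genes per direction with the smallest p among those with a mean of at least 5 CPM; not all of these are printed.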

Additional observations from a re-analysis of the deposited data

How the results depend on the processing

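Over 12 alternatives on the matrix (the 1.5-fold test aside), Egr3 (-2.79 to -2.54), Atf3 (1.82 to 2.05), Jun (0.34 to 0.56) and Fosl2 (0.19 to 0.40) kept their direction and call, Junb lost its call in 1, and Fosl1 was called in none. Against a 1.5-fold change 3394 genes were called in place of 10353, 2 of the 10 genes in place of 8, and 37 of the 125 related genes in place of 104. Leaving out a library gave 5 to 8 of the 10 genes. The per-library tables gave 5436 calls, 2 of the 4 of these genes that passed the filter, and 29 of 55 related genes (13 lower and 16 higher, beside 73 and 31 in the matrix). Fosl2 had 0 to 1 counts per library there. The gain of 0.02 percentage points in its share, in place of 2.58, is therefore no second estimate. In those tables Atf3 (-0.64), Egr3 (0.00064), Atf6 (0.25) and Erbb3 (0.34) turned in sign. Dusp14 (-0.02), Mrtfb (0.15), Crebbp (0.06), Pax7 (0.07) and Ckm (-0.14) were not called there. Counts of many of the 10 genes differ widely between the 2 forms, so these values are no second measurement. The cause was not tested. With library size only Egr1 turned to 0.07. Jund turned to -0.0019 with median-of-ratios factors, -0.0095 without the low-count filter and -0.0094 with DESeq2, and ran from -0.06 to 0.07 without a library.

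Same-numbered WT and KO libraries did not deviate together (correlation -0.025 to -0.001 over 3 pairs, across genes), so the numbers were not taken to pair libraries. With the replicate block, 10209 genes, 7 of the 10 genes (Egr1 lost, adjusted p 0.058) and 103 related genes were called. Fosb and Fosl1 had the lowest depth in the matrix, at 48 to 161 counts per library. Of the other 40 genes under the naming rule, 28 kept their call in every alternative on the matrix.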
